A study of Mus musculus with 19 samples.

Results

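Lin28a and Utf1 are the pluripotency genes with the steepest fall in 2i/L medium in this RNA-seq series of mouse embryonic stem cells (ESCs), and their levels are described here across all 8 culture groups. They are 2 of the 12942 genes in the deposited table of CPM, read counts scaled to the size of each library. They were chosen by their low 2i/L levels against S/L, so those levels are given as a description with no test. The 19 libraries come from 3 male ESC lines named J-37, J-35 and J-34, which were moved at passage 4 into a medium and kept there. Groups of 2 libraries are S/L, 2i/L, a2i/L and PKCi/L after 6 passages (passage 10) and S/L+PD after 3 passages (passage 7). Groups of 3 libraries are S/L and 2i/L after 16 passages (passage 20) and cells put back from 16 passages in 2i/L into S/L for 3 more passages (passage 23), called the return. All cells grew on mouse embryonic fibroblast feeder layers and were sorted for the surface antigen SSEA1 before RNA was extracted. The labels do not give a strain and do not spell out the medium names. As background, S/L stands for serum with the cytokine LIF, 2i for inhibitors of the kinases Mek and Gsk3, a2i for inhibitors of Src and Gsk3, PKCi for an inhibitor of protein kinase C, and PD for a Mek inhibitor.

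By their titles the second S/L, 2i/L and a2i/L libraries at passage 10 are from J-35, whereas the matching libraries of PKCi/L and of S/L+PD are from J-37, although their generation label names J-35. Comparisons of PKCi/L or S/L+PD with S/L, 2i/L or a2i/L therefore also set one line against another by the titles, and for S/L+PD passage number differs as well. J-34 is in every one of these groups, and with the line as a replicate block the S/L+PD differences from S/L were -2.07 for Lin28a and -1.32 for Utf1, both still called (limma, adjusted p = 2.9e-11 and 1.59e-07). Passage number cannot be told apart from the medium for S/L+PD. The listed genes sum to 421426 to 465897 CPM in the libraries of passages 7 and 10 and to 292986 to 396883 CPM in those of passages 20 and 23, so levels are compared first within each of these sets. The mitochondrial tRNA synthetase gene Lars2 stood at 56.9 to 3797 CPM in the first set and at 14870 to 29548 CPM in the second. For 7 measured ESC markers, none at 0, the summed level was 2955.86 to 3327.89 CPM in S/L at passage 10 and 3043.92 to 3060.86 CPM in S/L+PD. At passage 10 the sum was 2647.9 to 2650.82 CPM in 2i/L, 2804.85 to 2914.24 CPM in a2i/L and 2754.99 to 2896.02 CPM in PKCi/L. It was lower in the later libraries, at 1365.69 to 1776.31 CPM in S/L and 1863.69 to 2044 CPM in 2i/L at passage 20 and 1666.19 to 1874.98 CPM after the return. Replicates correlated within a group at r of 0.989 to 0.995. Nothing in the labels says whether the libraries of a group came from separate derivations beyond the line name, so p-values measure the spread between these lines and libraries. In bulk RNA a lower level can mean fewer cells with the transcript or less transcript per cell, and these cannot be told apart.

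Lin28a encodes an RNA-binding protein with a cold-shock domain and a pair of zinc knuckles. It binds precursors of the microRNA let-7, and terminal uridylyl transferases then tag the precursor for decay. Let-7 in turn represses Lin28a and Lin28b through sites in their 3′ untranslated regions (UTRs), which makes a double-negative loop. In mouse development Lin28a is low in the naive inner cell mass state and rises as cells move towards the formative epiblast. Utf1 encodes a chromatin-bound protein of undifferentiated embryonic cells. It sits with Polycomb repressive complex 2 (PRC2) at developmental genes, brings the mRNA-decapping machinery to their leaky transcripts and holds the Arf tumour suppressor locus low. Its gene is a known target of Pou5f1 and Sox2. A Mek inhibitor blocks ERK signalling, and a Gsk3 inhibitor raises Wnt signalling.

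The mature let-7 family is printed because it is the microRNA family that Lin28a controls and that can bind the Lin28a transcript. Family names in the RefSeq table were kept by the seed GAGGUAG at bases 2 to 8, here in capitals. The shared seed is thus a rule of choice and not a result. It left 10 mouse names, and 4 are printed.
mmu-let-7a-5p: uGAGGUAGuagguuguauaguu
mmu-let-7d-5p: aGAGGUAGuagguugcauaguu
mmu-let-7g-5p: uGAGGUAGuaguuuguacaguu
mmu-miR-98-5p: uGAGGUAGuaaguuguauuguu
The letters that pair with this seed, CTACCTC, occur 2 times in the 2775-base Lin28a 3′ UTR (GENCODE transcript Lin28a-201), starting at bases 909 and 1547, and both matches are followed by an A. The match is in capitals.
Lin28a site at base 909: cacagcctgttgaaCTACCTCat
Lin28a site at base 1547: agatcgccacaaacCTACCTCac
The 4445-base 3′ UTR of the paralogue Lin28b holds 4 such matches, and the 122-base 3′ UTR of Utf1 holds none. Of 11086 measured genes with a 3′ UTR, 12.15% hold at least 1 match. Mature let-7 itself was not analysed here.

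The promoters are printed because both genes stood lower in 2i/L and in S/L+PD than in S/L. Each is a 300-base window around the start site from RefSeq on build GRCm38.p6. The expression table holds no coordinates. Lin28a lies at chr4:134018767-134019066 on the minus strand and Utf1 at chr7:139943606-139943905 on the plus strand, and both are printed on their own strand.
Lin28a promoter: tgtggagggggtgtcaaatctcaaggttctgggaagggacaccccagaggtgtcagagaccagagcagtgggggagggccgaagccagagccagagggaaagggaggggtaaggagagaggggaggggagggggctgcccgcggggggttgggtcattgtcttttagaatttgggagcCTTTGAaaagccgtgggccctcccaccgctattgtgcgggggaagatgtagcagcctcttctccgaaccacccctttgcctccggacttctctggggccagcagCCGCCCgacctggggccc
Utf1 promoter: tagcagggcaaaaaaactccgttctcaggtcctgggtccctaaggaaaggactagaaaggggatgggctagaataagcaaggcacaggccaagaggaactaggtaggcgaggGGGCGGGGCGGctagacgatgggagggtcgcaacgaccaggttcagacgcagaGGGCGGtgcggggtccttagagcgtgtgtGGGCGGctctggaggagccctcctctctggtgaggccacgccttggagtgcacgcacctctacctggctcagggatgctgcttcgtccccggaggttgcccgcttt
Capitals mark GGGCGG (a GC box) and CTTTGA (a core of TCF/LEF sites) on either strand. The Utf1 promoter holds 4 GC boxes, all before the RefSeq start site, and the pair farthest upstream overlaps by 1 base. The Lin28a promoter holds 1 GC box, after the RefSeq start site, and 1 CTTTGA 72 bases before that site. In GENCODE the Utf1 gene starts farther upstream, at base 139943789 inside this window. The Utf1 GC box nearest the RefSeq start site thus lies after the GENCODE start. Of 32851 RefSeq promoters of this length 35.66% hold at least 1 GGGCGG and 16.0% at least 1 CTTTGA. The presence of a match thus does not set these promoters apart. The share with 4 GC boxes, as in Utf1, was not counted. Also searched on both strands, and not found in either window, were TATAAA (the TATA box), CCAAT (the CCAAT box), CACGTG (the E-box), ATGCAAAT (the octamer), ACAAAG (a SOX core), CCGGAAG (an ETS site), TGACTCA (an AP-1 site), TTCCCGGAA (a STAT site), GGGTGTGG (a KLF site) and a serum response element. The Lin28a window holds 10 CpG and the Utf1 window 17, against a median of 7.0 over all promoters.

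In S/L at passage 10 Lin28a stood at 72.52 CPM in J-34 and 79.22 CPM in J-35. In 2i/L it stood at 1.52 and 1.77 CPM. The S/L level was 46.1 times the 2i/L mean, and the log2 difference of (CPM + 0.5) was -5.16 ± 0.25 (SE), the third lowest of all 12942 genes. At passage 20 Lin28a measured 161.3, 112.43 and 151.85 CPM in S/L (J-34, J-35 and J-37) and 3.08, 4.25 and 1.23 CPM in 2i/L. The log2 difference of -5.51 ± 0.20 was the lowest of any gene. In these contrasts 40.2% of genes were called at passage 10, 22.7% higher and 17.5% lower, and 62.3% at passage 20, 50% higher and 12.3% lower. The 2i/L libraries of both passages overlap, and no 2i/L library came near any S/L library. These contrasts chose the gene and are not tested.

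Utf1 in S/L at passage 10 stood at 39.31 CPM in J-34 and 51.66 CPM in J-35, and in 2i/L at 1.98 and 2.53 CPM. Its log2 difference was -4.06 ± 0.19, the eighth lowest of all genes. At passage 20 Utf1 measured 45.56, 27.83 and 47.74 CPM in S/L and 8.73, 9.5 and 8.33 CPM in 2i/L. The log2 difference there was -2.09 ± 0.16, at rank 80 from the lowest. All 3 later 2i/L libraries lie above both earlier ones, and the difference between the 2i/L groups was 1.77 ± 0.18 on the log2 scale. Thus in 2i/L Utf1 stood at 4.96% of its S/L mean at passage 10 and at 21.9% at passage 20, whereas Lin28a stood at 2.17% and 2.01%.

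Summed fibroblast markers, listed for feeder cells, differed between these groups. For 19 measured of 21 listed markers the sums were 46.73 to 52.52 CPM in S/L and 110.37 to 159.09 CPM in 2i/L at passage 10, and 68.1 to 98.53 CPM in S/L and 510.68 to 682.4 CPM in 2i/L at passage 20. No marker was at 0 in all libraries of these groups. The markers did not all go one way: 13 had a higher mean in 2i/L than in S/L and 6 a lower one at passage 10, and 14 and 5 at passage 20. The collagen gene Col3a1 had means of 0.61 CPM in S/L and 32.1 CPM in 2i/L at passage 10, and 5.54 and 161 CPM at passage 20. The smooth muscle genes Acta2 (2.79 against 0.045 CPM, then 4.08 against 1.52 CPM) and Tagln (7.03 against 0.08 CPM, then 6.46 against 1.09 CPM) had their higher mean in S/L. The part of feeder cells in the Utf1 level of the later 2i/L libraries was not tested.

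**Figure D1:**
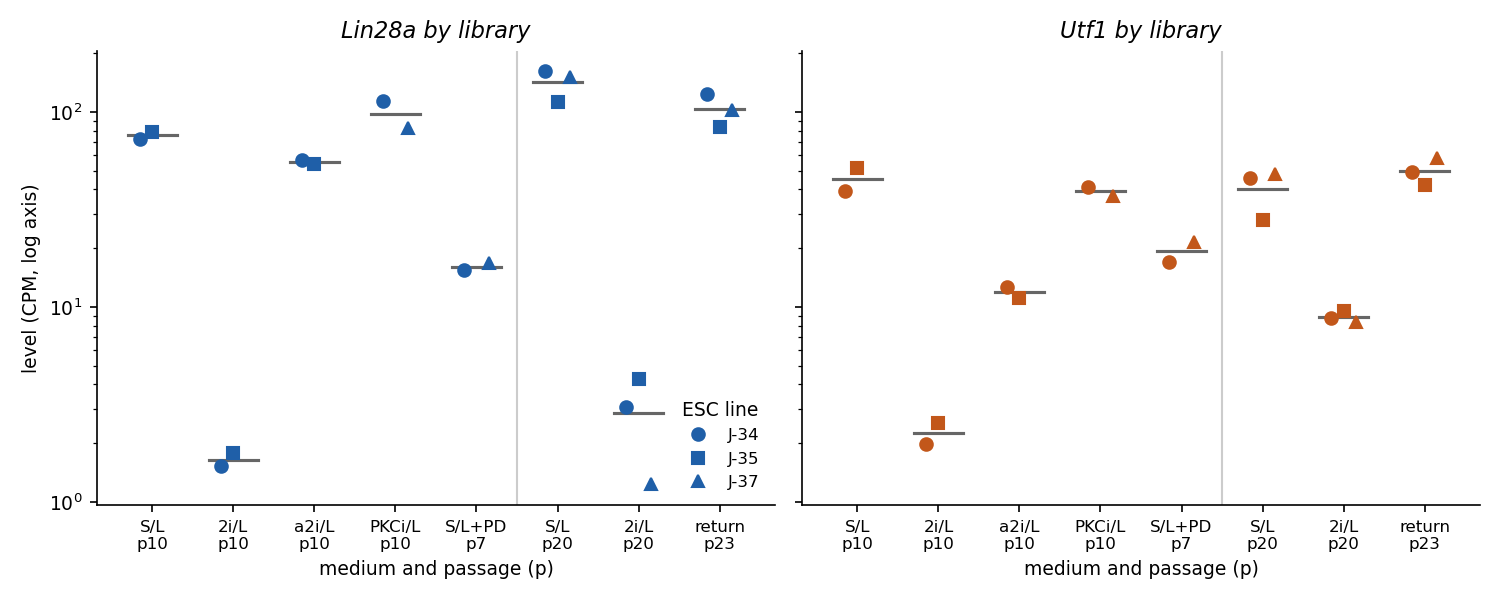
Level of Lin28a (left) and Utf1 (right) in CPM on a log axis for each of 19 libraries in 8 groups; symbols give the ESC line, bars the group mean, and the vertical line parts passages 7 and 10 from passages 20 and 23. Lin28a in 2i/L lies at 1.23 to 4.25 CPM at both passages, while Utf1 rises from 1.98 to 2.53 CPM at passage 10 to 8.33 to 9.5 CPM at passage 20.

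In a2i/L the genes parted. Utf1 stood at 12.7 and 11.04 CPM, below both S/L libraries, and fell by 1.88 ± 0.19 on the log2 scale (limma, adjusted p = 1.325e-09). Lin28a stood at 56.86 and 53.79 CPM, also below both S/L libraries, but its difference of -0.45 ± 0.25 did not pass (95% interval -0.95 to 0.05, limma adjusted p = 0.179). Of all genes tested 27.9% were called in this comparison, 10.7% higher and 17.3% lower, and Utf1 had the 99th lowest difference. In a fit of the libraries of passages 7 and 10 alone the Lin28a difference passed (limma adjusted p = 0.0197). The S/L libraries of this and the next comparisons also entered the contrast that chose the genes.

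In PKCi/L neither gene passed the test. Lin28a stood at 113.55 CPM in J-34 and 82.3 CPM in J-37, both above the S/L libraries, with a log2 difference of 0.35 ± 0.25 (interval -0.15 to 0.85, limma adjusted p = 0.310). Utf1 stood at 41 and 37.15 CPM, and the groups overlap, with a difference of -0.21 ± 0.19 (interval -0.60 to 0.19, limma adjusted p = 0.464). In this comparison 29.3% of genes were called, 5.8% higher and 23.5% lower.

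In S/L+PD, where the Mek inhibitor is added to serum medium, both genes fell. Lin28a stood at 15.49 and 16.69 CPM, 21.2% of the S/L mean, and fell by 2.20 ± 0.25 on the log2 scale (limma, adjusted p = 4.254e-09). Utf1 stood at 17.08 and 21.54 CPM, 42.5% of the S/L mean, and fell by 1.21 ± 0.19 (limma, adjusted p = 4.701e-06). No library of S/L+PD overlaps one of S/L for either gene, beside 35.7% of all genes called, 16.4% higher and 19.3% lower. The S/L+PD libraries carried fibroblast marker sums of 1434.79 to 2316.96 CPM, with all 19 measured markers at a mean above 1 CPM and Col1a2 highest at 356 CPM. The part of feeder cells in these falls was not tested.

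Comparisons among a2i/L, PKCi/L and S/L+PD share no library with the choice of the genes. Lin28a was lower in S/L+PD than in a2i/L (-1.75 ± 0.25, limma adjusted p = 4.689e-07) and than in PKCi/L (-2.55 ± 0.25, limma adjusted p = 8.11e-11). Utf1 went the other way between the first pair, higher in S/L+PD than in a2i/L by 0.67 ± 0.19 (limma, adjusted p = 0.00584), and it was lower in S/L+PD than in PKCi/L (-1.01 ± 0.19, limma adjusted p = 5.85e-05). Of all genes 36.9% were called between S/L+PD and a2i/L and 42.1% between S/L+PD and PKCi/L. Between a2i/L and PKCi/L, with 31.6% of genes called, Utf1 fell by 1.68 ± 0.19 in a2i/L (limma, adjusted p = 1.27e-08) and Lin28a differed by -0.80 ± 0.25 (limma adjusted p = 0.0120). The Lin28a call was lost without the a2i/L J-35 library (-0.76, limma adjusted p = 0.0729) or without the PKCi/L J-34 library (-0.57, limma adjusted p = 0.173). The Utf1 rise of S/L+PD over a2i/L was lost without the a2i/L J-35 library (0.58, limma adjusted p = 0.0707) or without the S/L+PD J-37 library (0.51, limma adjusted p = 0.101).

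**Figure D2:**
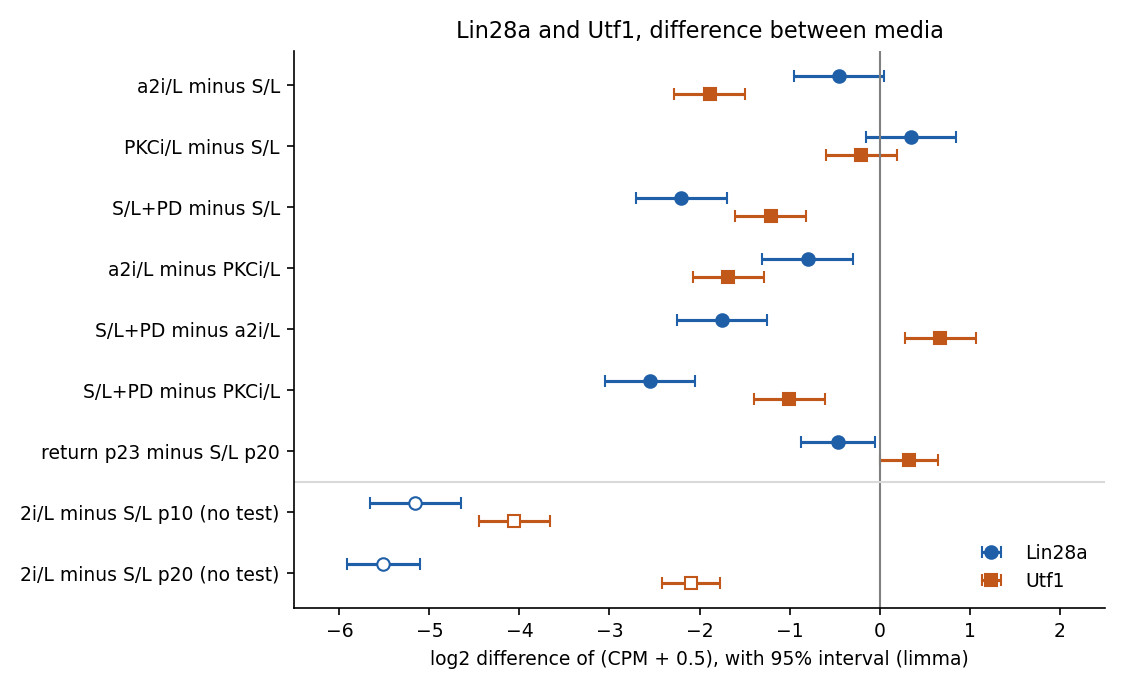
Log2 difference of (CPM + 0.5) between media for Lin28a (circles) and Utf1 (squares), with 95% intervals from limma; open symbols are 2i/L contrasts given without a test. S/L+PD minus a2i/L is -1.75 for Lin28a and 0.67 for Utf1.

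After 3 passages back in S/L both genes stood far above their 2i/L levels. Lin28a measured 124.21, 83.45 and 101.83 CPM in J-34, J-35 and J-37, which is 77.0%, 74.2% and 67.1% of the same line in S/L at passage 20. All 3 lines lie below their own S/L level, although the groups overlap. The log2 difference of -0.46 ± 0.20 did not pass (limma adjusted p = 0.0694), and it passed with the line as a replicate block (limma adjusted p = 0.0298). With TMM scaling between libraries it was -0.71 (limma adjusted p = 0.0183), and without the return J-34 library it was -0.60 (limma adjusted p = 0.0276). Utf1 measured 49.43, 42.1 and 57.75 CPM, which is 108%, 151% and 121% of the same line in S/L. All 3 lines lie above their own S/L level, the groups overlap, and the difference of 0.33 ± 0.16 did not pass (limma adjusted p = 0.103). It was 0.08 with TMM scaling and 0.46 without the S/L J-37 library, where it passed (limma adjusted p = 0.0296). In the return comparison 39.3% of genes were called, 32.7% higher and 6.63% lower, and the median of all genes was 0.20 (-0.03 with TMM scaling), so Lin28a lay below that median in the return and Utf1 above it.

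Between passages 10 and 20 in S/L Lin28a differed by 0.88 ± 0.23 (limma adjusted p = 0.000927) and Utf1 by -0.20 ± 0.18 (limma adjusted p = 0.332). This comparison crosses the library sets, 67.2% of genes were called and the median of all genes was -0.52 (0.01 with TMM scaling). With TMM scaling the differences were 1.46 for Lin28a and 0.37 for Utf1, the latter with its direction turned. It was also turned without the S/L J-35 library of passage 20 (0.049).

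In order of mean level Lin28a ran from 2i/L at passage 10 (1.65 CPM) and passage 20 (2.85 CPM) to S/L+PD (16.1), a2i/L (55.3), S/L at passage 10 (75.9), PKCi/L (97.9), the return (103) and S/L at passage 20 (142 CPM). The ranges of the 2i/L groups overlap, as do those of PKCi/L and the return and those of the return and S/L at passage 20. Utf1 ran from 2i/L at passage 10 (2.26 CPM) and passage 20 (8.85 CPM) to a2i/L (11.9), S/L+PD (19.3), PKCi/L (39.1), S/L at passage 20 (40.4), S/L at passage 10 (45.5) and the return (49.8 CPM). Each neighbouring pair among the last 4 overlaps. A2i/L and S/L+PD thus change places between both orders. The Pearson correlation of Lin28a with Utf1 over the 8 group means was 0.89, and among the 8855 genes that average 5 CPM or more 46 were more like Lin28a than Utf1 was. Both genes were chosen for low 2i/L levels, and 2 of the 8 means are 2i/L groups, so the choice largely fixes a high value.

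Set per length, with 3.996 kb of exons for Lin28a and 1.227 kb for Utf1 in GENCODE, the ratio of Utf1 to Lin28a in CPM per kb moved with the medium. It was 1.77 and 2.12 in S/L at passage 10, 4.24 and 4.66 in 2i/L, and 3.591 and 4.203 in S/L+PD. In a2i/L it was 0.727 and 0.668, the only group of passages 7 and 10 in which Lin28a stood higher per kb. At passage 20 the ratio was 0.9199, 0.806 and 1.02 in S/L and 9.23, 7.28 and 22.1 in 2i/L, and after the return it was 1.30, 1.64 and 1.85. Every return library lies above every S/L library of passage 20. The J-37 library at 22.1 is the one with the lowest Lin28a level. This difference between the genes is a description and was not tested.

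**Figure D3:**
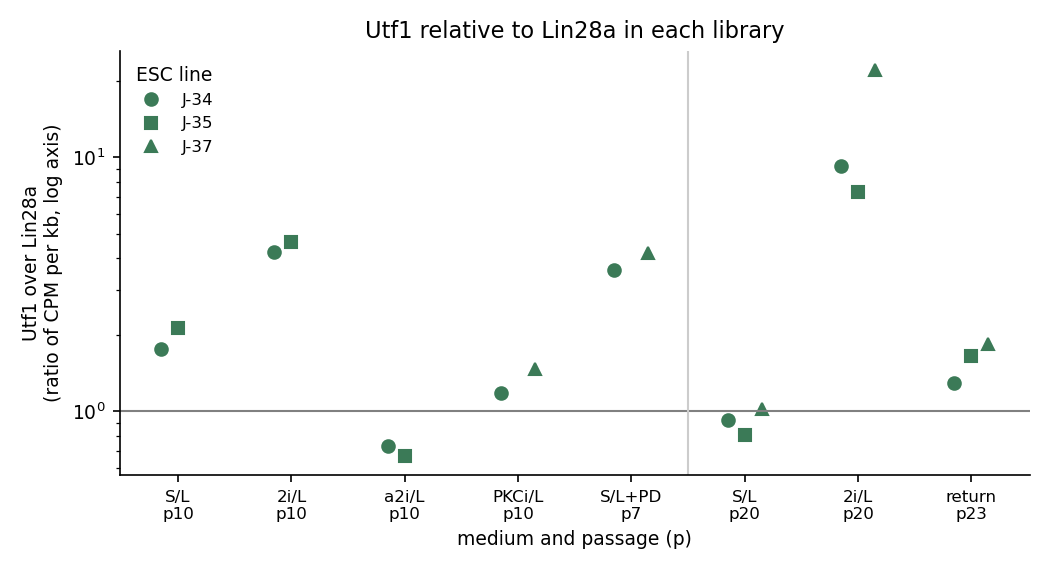
Ratio of Utf1 to Lin28a in CPM per kb of exon, on a log axis, for each library; symbols give the ESC line and the horizontal line marks equal levels per kb. The a2i/L libraries lie at 0.668 and 0.727, and the 2i/L and S/L+PD libraries at 3.59 to 22.1.

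The other LIN28 protein is encoded by Lin28b, which shares the let-7 role. Lin28b measured 17.41 and 11.82 CPM in S/L at passage 10, 1.1 and 0.77 CPM in 2i/L, 11.08 and 12.21 CPM in a2i/L, 11.07 and 8.61 CPM in PKCi/L and 1.39 and 1.02 CPM in S/L+PD. It fell in S/L+PD by 3.13 ± 0.23 (limma, adjusted p = 9.6e-14) and in 2i/L by 3.38 ± 0.23 (limma, adjusted p = 1.1e-14), while in a2i/L (-0.29 ± 0.23, limma adjusted p = 0.37) and PKCi/L (-0.53 ± 0.23, limma adjusted p = 0.076) it did not pass. At passage 20 it measured 4.24, 3.02 and 2.16 CPM in 2i/L and fell by 1.76 ± 0.19 (limma, adjusted p = 3.9e-10). The 2i/L difference of Lin28b was 1.62 ± 0.29 smaller in size at passage 20 than at passage 10 (limma, adjusted p = 5.07e-05), a contrast that crosses the library sets and calls 37% of genes. The same quantity was 1.96 ± 0.25 for Utf1 and -0.35 ± 0.32 for Lin28a, given without a test, and it was 0.063 for Lin28a without the 2i/L J-37 library of passage 20. After the return it measured 18, 14.11 and 12.32 CPM against 12.12, 9.85 and 12.8 CPM in S/L, with overlapping groups (0.33 ± 0.19, limma adjusted p = 0.16). In the S/L+PD libraries Lin28b thus stood at 8.24% of its S/L mean, beside 21.2% for Lin28a.

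Genes of the let-7 decay step and its regulators were called at shares near those of all genes in a2i/L and 2i/L. Of 10 listed and measured, 2 fell and none rose in S/L+PD, Lin28b and Msi2 (-0.63 ± 0.15, limma adjusted p = 0.0015), the latter encoding a Musashi RNA-binding protein, beside 35.7% of all genes called. In a2i/L 2 rose, Msi1 (0.71 ± 0.18) and Trim25 (0.38 ± 0.14), and Trim71 fell (-0.58 ± 0.16), beside 27.9% of all genes. Trim71 is a stem cell ubiquitin ligase that is itself a let-7 target. In PKCi/L none passed, or 1 rose with TMM scaling, beside 29.3% of all genes called. At passage 20 in 2i/L 4 rose and 2 fell, or 2 and 4 with TMM scaling, beside 62.3% of all genes called. Msi1 (1.41 ± 0.14) and the uridylyl transferase gene Zcchc6 (0.85 ± 0.13) rose there, and Trim71 (-0.99 ± 0.13) and Lin28b fell. At passage 10 in 2i/L, beside 40.2% of all genes called, 1 rose and 4 fell, or 2 and 4 with TMM scaling, with Msi1 at 0.74 ± 0.18 and the exonuclease gene Dis3l2 at -0.52 ± 0.19. After the return Zcchc6 rose (0.52 ± 0.13) and none fell, or 1 rose and 2 fell with TMM scaling, beside 39.3% of all genes called. The list's median in S/L+PD was -0.15 against -0.06 over all genes.

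Among 12 measured microRNA processing genes, 1 rose and 3 fell in S/L+PD, near the 35.7% of all genes called there. The argonaute gene Eif2c4 (Ago4) rose by 0.99 ± 0.23, from 0.53 to 1.54 CPM, and Dicer1, which cuts precursors to mature microRNAs, fell by 0.83 ± 0.16 (limma, adjusted p = 5.05e-05). Xpo5, the exporter of precursors, fell by 0.59 ± 0.15, and Ddx17 fell by 0.46 ± 0.16. With TMM scaling 2 rose and 4 fell. The list's median was -0.13 against -0.06 over all genes. In a2i/L Dgcr8 (-0.59 ± 0.17) and Ddx17 (-0.49 ± 0.16) fell and none rose, with 5 falls under TMM scaling. In PKCi/L Eif2c2 (Ago2) fell by 0.40 ± 0.15, whereas with TMM scaling 2 genes of the list rose and none fell. In 2i/L 3 rose at passage 10 and 6 at passage 20 and none fell, while with TMM scaling 4 rose and 2 fell at passage 10 and 6 rose and 5 fell at passage 20. After the return 2 rose and 1 fell, or 1 and 5 with TMM scaling. The share of all genes called was 27.9% in a2i/L, 29.3% in PKCi/L and 39.3% after the return. For 2i/L it was 40.2% at passage 10 and 62.3% at passage 20.

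Known let-7 target genes did not move as one. Of 28 measured of 30 listed, 7 rose and 8 fell in S/L+PD, with a median of -0.09 against -0.06 over all genes, and in a2i/L 8 rose and 7 fell, with a median of 0.03 against -0.09. Of all genes 35.7% and 27.9% were called in these comparisons. With TMM scaling these became 11 and 9 in S/L+PD and 12 and 7 in a2i/L. In S/L+PD the cyclin gene Ccnd2 rose by 3.40 ± 0.26, to 31.48 CPM in J-34 and 14.47 CPM in J-37. The fibroblast marker sums of these libraries were 2316.96 and 1434.79 CPM, and their part in the rise was not tested. In S/L+PD Prtg (-2.35 ± 0.20), Myc (-1.76 ± 0.26) and the nuclear receptor Nr6a1 (-1.50 ± 0.18) fell. In a2i/L Hmga2, a chromatin protein gene often used to read out let-7, rose by 1.42 ± 0.24 from 0.925 to 3.33 CPM, and Myc (-2.12 ± 0.26) and Mycn (-1.09 ± 0.21) fell. In PKCi/L 2 rose and 6 fell, and 10 and 6 with TMM scaling. In 2i/L 11 rose and 3 fell at passage 10 and 12 rose and 5 fell at passage 20, and with TMM scaling 12 and 7 and then 8 and 11. After the return 9 rose and 2 fell, or 7 and 10 with TMM scaling, with Prtg at 1.83 ± 0.16. The share of all genes called was 29.3% in PKCi/L and 39.3% after the return. For 2i/L it was 40.2% at passage 10 and 62.3% at passage 20. Of the 28 list genes with a 3′ UTR, 23 hold the CTACCTC match printed above for Lin28a.

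Genes tied to Utf1 through mRNA decapping and Arf numbered 12, all measured. In S/L+PD 3 rose and 1 fell, near the 35.7% of all genes called, and with TMM scaling 5 and 3, and the median was -0.06, as over all genes. Cdkn2a, the locus of Arf and p16, rose by 1.26 ± 0.19 in a2i/L (limma, adjusted p = 3.5e-06) and by 1.37 ± 0.19 in S/L+PD (limma, adjusted p = 3.8e-07), from 3.23 and 2.76 CPM in S/L to 8.18 and 7.49 CPM in a2i/L and 7.76 and 9.32 CPM in S/L+PD. In PKCi/L it did not pass (0.13 ± 0.19, limma adjusted p = 0.66). Gene counts do not part the Arf transcript from that of p16. After the return, where Utf1 did not pass, Cdkn2a measured 5.58, 6.01 and 7.8 CPM against 3.85, 2.71 and 3.13 CPM in S/L (0.90 ± 0.16, limma adjusted p = 1.9e-05). In all, 3 of this list rose after the return and none fell, or 1 and 3 with TMM scaling, beside 39.3% of all genes called. The cell cycle inhibitor Cdkn1a also rose in a2i/L (1.51 ± 0.19) and S/L+PD (1.44 ± 0.19). The S/L+PD libraries are those with the high fibroblast marker sums, whose part in the Cdkn2a and Cdkn1a rises there was not tested. Of the decapping genes, Edc4 fell in a2i/L (-0.48 ± 0.14), S/L+PD (-0.40 ± 0.14) and PKCi/L (-0.52 ± 0.14). In 2i/L 4 rose and 1 fell at passage 10, near the 40.2% of all genes called. At passage 20 there 7 rose and none fell, or 4 and 2 with TMM scaling, near the 62.3% of all genes called. Cdkn2a rose by 1.98 ± 0.19 at passage 10, and Dcp2, the decapping enzyme, by 1.30 ± 0.15.

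Of these 12 decapping and Arf genes none rose and 3 fell in PKCi/L, or 1 and 3 with TMM scaling. In a2i/L 2 rose and 1 fell, or 3 and 1 with TMM scaling. These counts lie near the 29.3% and 27.9% of all genes called in PKCi/L and a2i/L.

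The 10 PRC2 genes held 1 rise and 4 falls in a2i/L, none and 3 in PKCi/L and none and 3 in S/L+PD, and with TMM scaling 3 and 4, 1 and 3, and 2 and 3. Of all genes 27.9%, 29.3% and 35.7% were called in these media, so the PKCi/L and S/L+PD counts lie near the background. Jarid2, which helps bring the complex to chromatin, fell in all 3, by 0.91 ± 0.15, 0.83 ± 0.15 and 0.62 ± 0.15. Phf19 fell in a2i/L (-1.55 ± 0.22) and PKCi/L (-1.68 ± 0.22) and was not called in S/L+PD. The list's median was 0.01 in a2i/L and 0.09 in S/L+PD against -0.09 and -0.06 over all genes. After the return the catalytic subunit gene Ezh2 (0.79 ± 0.13) and Phf19 (0.63 ± 0.18) rose and none fell, or 2 rose and 3 fell with TMM scaling. In 2i/L 2 rose and 3 fell at passage 10, with Suz12 at 1.29 ± 0.16 and Phf19 at -1.65 ± 0.22. At passage 20 there 6 rose and 3 fell, or 4 and 4 with TMM scaling. The share of all genes called was 39.3% after the return, and 40.2% and 62.3% in 2i/L at passages 10 and 20.

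Feedback genes of the ERK pathway were set beside both genes because PD blocks Mek, the kinase above ERK. Of 18 measured of 20 listed, 3 rose and 11 fell in S/L+PD, with a median of -0.95 against -0.06 over all genes. There 16.4% of all genes were called higher and 19.3% lower. In a2i/L 3 rose and 10 fell, with a median of -0.51 against -0.09, beside 10.7% called higher and 17.3% lower. In PKCi/L 1 rose and 4 fell, or 2 and 3 with TMM scaling, near the 29.3% of all genes called. Spry4, an inhibitor of the pathway induced by it, fell by 6.40 ± 0.22 in S/L+PD, from 79.38 and 88.51 CPM to 0.71 and 0.32 CPM, and by 1.69 ± 0.22 in a2i/L. Dusp6, the phosphatase of ERK, fell by 2.49 ± 0.19 in S/L+PD and by 1.58 ± 0.19 in a2i/L, and it did not pass in PKCi/L (-0.20 ± 0.19, limma adjusted p = 0.46). Fos rose in S/L+PD by 5.49 ± 0.27, in the libraries with the high fibroblast marker sums, whose part in it was not tested. After the return 13 of the 18 rose and none fell, or 9 and 1 with TMM scaling, beside 32.7% of all genes called higher. Spry4 then stood 1.20 ± 0.18 and Dusp6 0.74 ± 0.16 above S/L. In 2i/L 2 rose and 12 fell at passage 10, beside 22.7% of all genes called higher and 17.5% lower. At passage 20 there 3 rose and 9 fell, or 1 and 14 with TMM scaling, beside 50% called higher and 12.3% lower.

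**Figure D4:**
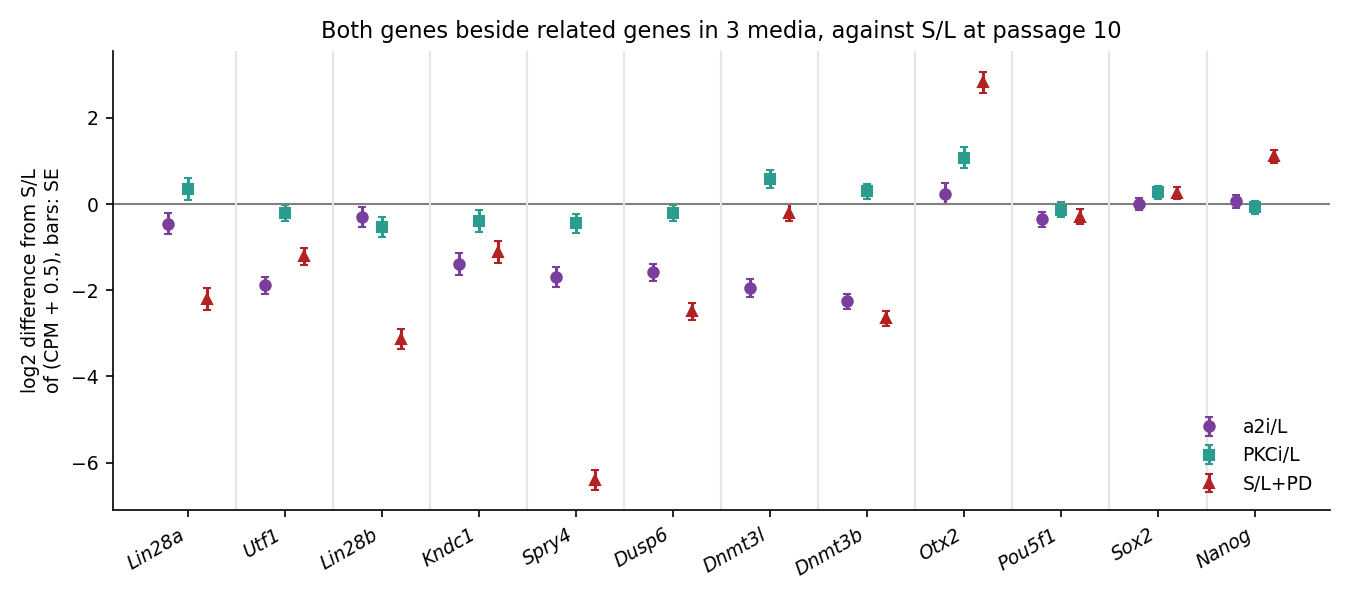
Log2 difference from S/L at passage 10 of (CPM + 0.5), with SE bars, for Lin28a, Utf1 and 10 related genes in a2i/L (circles), PKCi/L (squares) and S/L+PD (triangles). Dnmt3l and Utf1 are lower in a2i/L than in S/L+PD, and Lin28a, Lin28b, Spry4 and Dusp6 are lower in S/L+PD.

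Genes of the formative and primed states, which follow the naive state in the embryo, split by medium. Of 16 measured of 18 listed, 6 rose and 8 fell in S/L+PD, or 6 and 7 with TMM scaling. In a2i/L 3 rose and 9 fell, and in PKCi/L 9 rose and 2 fell. The share of all genes called was 35.7%, 27.9% and 29.3% in that order. The list's medians were -0.59, -0.88 and 0.63 in the same order, against -0.06, -0.09 and -0.17 over all genes. Dnmt3l, the cofactor of de novo DNA methylation, fell in a2i/L by 1.95 ± 0.20 and did not pass in S/L+PD (-0.20 ± 0.20, limma adjusted p = 0.48). The methyltransferase gene Dnmt3b fell in both, by 2.25 ± 0.18 and 2.65 ± 0.18. Otx2, a transcription factor of the formative state, rose in S/L+PD by 2.83 ± 0.25 and in PKCi/L by 1.08 ± 0.25. After the return 7 rose and 2 fell, or 5 and 3 with TMM scaling, beside 39.3% of all genes called. Dnmt3l then measured 352.14, 313.78 and 345.64 CPM against 189.22, 109.76 and 189.31 CPM in S/L, with no overlap (1.09 ± 0.17, limma adjusted p = 2.3e-06). In 2i/L 6 rose and 7 fell at passage 10, beside 40.2% of all genes called. At passage 20 there 3 rose and 9 fell, or 1 and 12 with TMM scaling, beside 62.3% of all genes called.

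Other pluripotency genes did not follow both members as a group. More rose than fell in S/L+PD, where both members fell, and more fell than rose in a2i/L, where Utf1 fell. Of 28 measured, 11 rose and 5 fell in S/L+PD (12 and 7 with TMM scaling), beside 16.4% of all genes called higher and 19.3% lower. In a2i/L 5 rose and 11 fell, beside 10.7% higher and 17.3% lower. The list's medians were 0.08 and -0.24, against -0.06 and -0.09 over all genes. In PKCi/L 6 rose and 6 fell (12 and 6 with TMM scaling), beside 5.8% higher and 23.5% lower. After the return 6 rose and 8 fell (2 and 20 with TMM scaling), beside 32.7% higher and 6.63% lower. Pou5f1 and Sox2, the known activators of Utf1, did not pass in a2i/L (-0.35 ± 0.17 and 0.00 ± 0.15), PKCi/L (-0.13 ± 0.17 and 0.27 ± 0.15) or S/L+PD (-0.29 ± 0.17 and 0.26 ± 0.15, with limma adjusted p of 0.19 and 0.17). In 2i/L Pou5f1 fell by 0.73 ± 0.17 at passage 10 (limma, adjusted p = 0.000718), from 519.3 and 554.14 CPM to 325.65 and 320.88 CPM, and it did not pass at passage 20 (-0.20 ± 0.14, limma adjusted p = 0.207). Sox2 did not pass in 2i/L at passage 10 (0.32 ± 0.15, limma adjusted p = 0.0788) or passage 20 (-0.23 ± 0.12, limma adjusted p = 0.0953). Nanog rose in S/L+PD (1.11 ± 0.15). In a2i/L the forkhead factor gene Foxd3 fell (-2.58 ± 0.22). In 2i/L 8 rose and 9 fell at passage 10, beside 40.2% of all genes called. At passage 20 there 13 rose and 7 fell, or 10 and 15 with TMM scaling, beside 62.3% of all genes called. Of 12 measured Wnt target genes of 15 listed, 6 rose and none fell in a2i/L, beside 10.7% of all genes called higher. In S/L+PD 2 rose and 3 fell (3 and 3 with TMM scaling), and in PKCi/L 2 rose and 2 fell (2 and 1). These counts lie near the 35.7% and 29.3% of all genes called there. The list's median was 0.79 in a2i/L against -0.09 over all genes. Cdx1, a homeobox target, rose in a2i/L by 3.38 ± 0.20 and fell in S/L+PD by 2.70 ± 0.20. In 2i/L 10 rose and 1 fell at passage 10 and 11 rose and 1 fell at passage 20, beside 22.7% and 50% of all genes called higher. After the return 8 rose and none fell, beside 32.7% of all genes called higher.

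The genes whose pattern over the 8 group means was most like Lin28a, among the 8855 genes that average 5 CPM or more, were Dusp3 (r = 0.98), Esrp1 (0.97), Dusp6, Unk, Foxp1, Kat5, Cgn and Eif2b1 (each 0.95 or 0.96). Esrp1, an epithelial splicing regulator, fell from a mean of 8.1 CPM in S/L to 1.23 CPM in S/L+PD and stood at 7.14 CPM in a2i/L. The lowest r were those of Fam53c (-0.99), Add1 (-0.98) and Abcc5 (-0.97). Most like Utf1 were Dnmt3l (0.97), Cbx7 (0.97), Dos, Zfp36l1, Ccdc64, Ppp1r18, Snrpn and Slc39a14 (0.94 to 0.96), and least like it were Tnfrsf19 (-0.98), Capn7 and Kctd6 (-0.96 and -0.95). The lists share no gene among their first 8. These correlations rest on 8 group means that share libraries, lines and the deposited scaling, and with TMM scaling 3 of 8 genes in each list stayed.

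**Figure D5:**
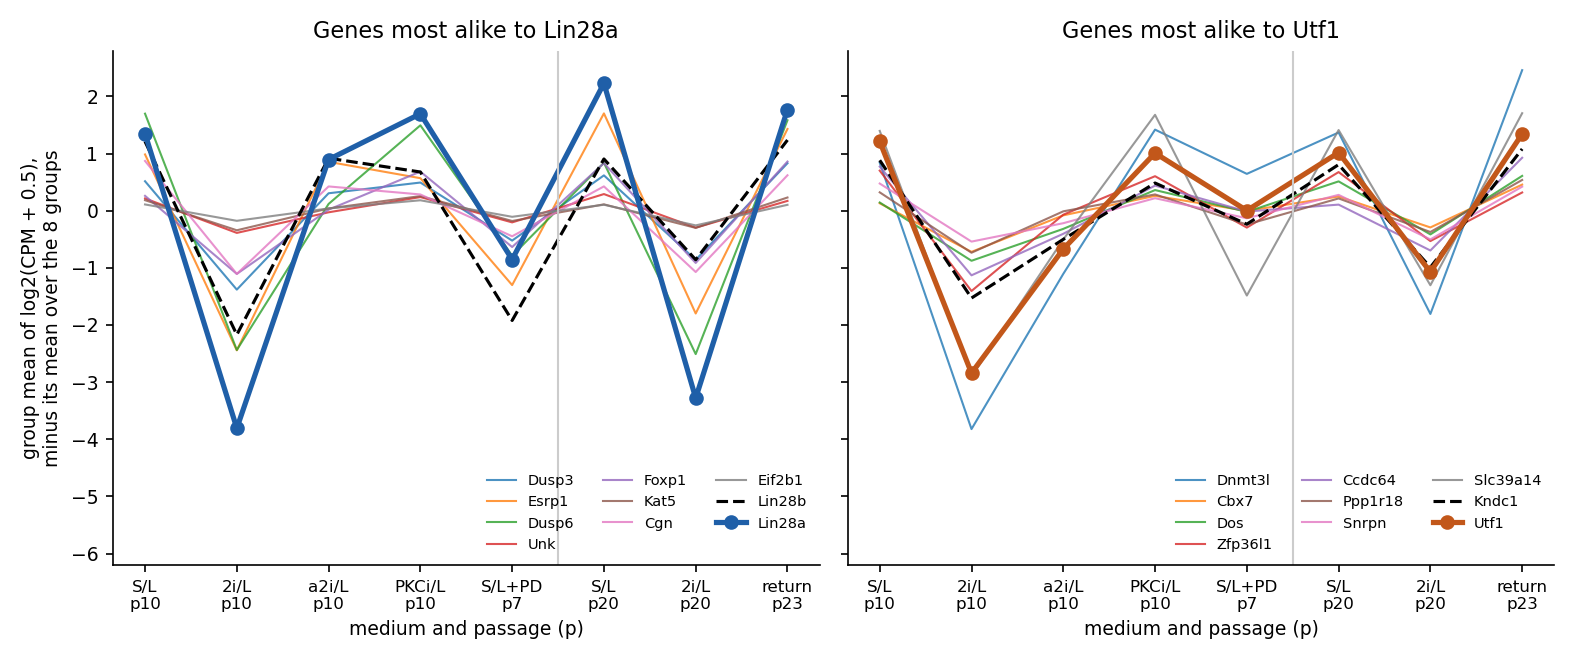
Group means of log2(CPM + 0.5), each gene centred on its mean over the 8 groups, for Lin28a (left) and Utf1 (right) with the 8 genes most like each and, dashed, Lin28b and Kndc1. Lin28a and its companions dip in S/L+PD. Utf1, Dnmt3l, Cbx7, Dos, Ccdc64 and Snrpn stand lower in a2i/L than in S/L+PD, whereas Zfp36l1, Ppp1r18 and Slc39a14 stand higher.

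On the chromosome the nearest measured gene to Utf1 on its lower-coordinate side, Kndc1, had a pattern with r of 0.97 to Utf1 over the 8 groups. Kndc1 encodes a protein with a kinase-like domain expressed in the brain, and lies just before Utf1 on the same strand. It measured 4.61 and 5.96 CPM in S/L at passage 10, 0.37 and 0.84 CPM in 2i/L, 1.71 and 1.69 CPM in a2i/L, 4.76 and 3.11 CPM in PKCi/L and 2.71 and 1.68 CPM in S/L+PD. It fell in a2i/L by 1.38 ± 0.25 (limma, adjusted p = 6.2e-05) and in S/L+PD by 1.12 ± 0.25 (limma, adjusted p = 0.00059), and it did not pass in PKCi/L (-0.40 ± 0.25, limma adjusted p = 0.25). At passage 20 it measured 5.88, 3.44 and 5.94 CPM in S/L and 0.81, 1.37 and 1.07 CPM in 2i/L, and after the return 5.67, 7.06 and 5.63 CPM. Its mean lies below the 5 CPM limit of the ranking above. The other 5 neighbours of Utf1 (Nkx6-2, Inpp5a, Adam8, Tubgcp2 and Zfp511) had r of -0.49 to 0.51.

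Of the neighbours of Lin28a, Aim1l on the higher-coordinate side was most like it (r = 0.77). It fell in S/L+PD by 1.39 ± 0.22 (limma, adjusted p = 4.2e-06) and, unlike Lin28a, in PKCi/L by 0.83 ± 0.22 (limma, adjusted p = 0.004). The other 5 (Dhdds, Hmgn2, Rps6ka1, Ubxn11 and Sh3bgrl3) had r of -0.69 to 0.28. The gene Gm13061 matches 235 bases of the Lin28a transcript at 95% identity or more, so a share of Lin28a reads could have been counted there or dropped.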

How the data were processed

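RNA was sequenced from 19 libraries of mouse ESCs with ribosomal RNA removed and a directional kit, paired-end, per the labels' protocols. The authors deposited CPM (library-scaled read counts) per gene with 2 decimals. The submitters' processing notes name STAR 2.3.0, HTSeq 0.6.0, Picard 1.100, SAMtools 0.1.18.0 and edgeR 3.8.6 and the builds NCBIM37 and mm9. Every listed gene reaches 1.01 CPM or more in at least 3 libraries. Depth, read from the steps of low values, was 33.85 to 85.35 M reads in the 15 libraries where it could be read. Whole reads could not be recovered, so no count test was run.

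From log2(CPM + 0.5) limma 3.58.1 (R 4.3.3) fitted all 8 groups at once with 11 residual degrees of freedom and a mean-variance trend. P-values were Benjamini-Hochberg adjusted over 12942 genes per comparison, with a threshold of 0.05. The filter of 1 CPM in 2 libraries removed no gene. The fit was tested on simulated data. Lines pair the libraries by their titles, and libraries of the same line deviated together weakly (median r of 0.04 over 53 pairs). Groups come from the sample labels. Named genes are Lin28a and Utf1, their 8 most and 3 least alike genes, 3 measured neighbours on each side, 9 comparators, and up to 4 called members per list with the largest difference. The members, lists and tests were chosen with earlier results of these data known. Alternatives covered the pseudocount, scaling, filters, a line block, separate fits and leaving out each library. Gene lengths and 3′ UTRs come from GENCODE on GRCm38. A gene of the lists is not reported here by name.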

Additional observations from a re-analysis of the deposited data

Results flagged for a closer look

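The 2i/L difference from S/L was compared between passage 20 and passage 10 for 41 genes named beside Lin28a and Utf1, and 18 passed the test of the change itself (limma, adjusted p under 0.05), where 37% of all genes did. The value is the log2 difference at passage 20 minus that at passage 10. The contrast crosses the library sets, and its median over all genes was 0.29, or -0.02 with TMM scaling. Among genes of ERK feedback and the let-7 loop the change was 2.86 for Spry4, 0.79 for Dusp6 and 1.62 for Lin28b. It was 1.49 for Dnmt3l, 0.80 for Dnmt3b, -3.03 for Otx2, 0.69 for Nanog and -0.55 for Sox2. Of genes like or least like Utf1 it was 1.58 for Slc39a14, 1.099 for Ccdc64, 0.90 for Zfp36l1 and -2.77 for Tnfrsf19. These 4 were picked for following or opposing Utf1 over groups that include both 2i/L ones, so their values describe that choice and are no separate evidence. Of chromosomal neighbours it was 2.16 for Nkx6-2, 1.64 for Aim1l, 1.28 for Inpp5a, 0.79 for Sh3bgrl3, 0.69 for Dhdds and 0.63 for Rps6ka1. With TMM scaling 13 of the 18 still passed with the same sign, and Dhdds, Dusp6, Nanog, Rps6ka1 and Sh3bgrl3 did not. Fibroblast marker sums were higher in the later 2i/L libraries, and their part in these changes was not tested. No group has 4 or more libraries, so single libraries were not screened within groups.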

How the results depend on the processing

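Among the tested differences of Lin28a and Utf1 under alternatives, 210 kept direction and call, 10 gained it, 4 lost it and 4 turned direction. The Lin28a difference between the return and S/L at passage 20 passed with a pseudocount of 1 CPM (-0.46, limma adjusted p = 0.0483), TMM scaling (-0.71), rescaling to the listed sum (-0.60), the line as a replicate block from titles (-0.46, limma adjusted p = 0.0298) or from generation labels (-0.46, limma adjusted p = 0.0308), the block with TMM scaling (-0.71) and late libraries alone (-0.46), and ranged from -0.62 to -0.32 when 1 library was left out. The replicate block changed no other call. Leaving out 1 library gave 0.081 to 0.46 for Utf1 in that comparison, -1.03 to -0.57 for Lin28a and a2i/L minus PKCi/L, and 0.51 to 0.84 for Utf1 and S/L+PD minus a2i/L. Lin28a in a2i/L passed in the early libraries alone (-0.45). Utf1 between S/L passages turned direction with TMM scaling (0.37), rescaling (0.24), block with TMM (0.32) and within a leave-one-out range of -0.39 to 0.049, and the Lin28a change in the 2i/L difference ranged from -0.67 to 0.063. The cause was not tested.

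A filter at an average of 5 CPM, which leaves fewer genes, called 2295 genes for a2i/L, 2333 for PKCi/L, 2932 for S/L+PD and 3232 for 2i/L against S/L, 2563 for a2i/L minus PKCi/L, 2967 and 3411 for S/L+PD minus a2i/L and PKCi/L, 2799, 3687 and 2647 for a2i/L, PKCi/L and S/L+PD minus 2i/L, 3851 for the return minus 2i/L and 3161 for the change in the 2i/L difference. Without 1 library the ranges were 2281 to 2537 (a2i/L minus S/L), 2480 to 3508 (a2i/L minus PKCi/L), 3065 to 3404 (a2i/L minus 2i/L) and 2829 to 3427 (S/L+PD minus 2i/L). Of the 8 genes most like Lin28a, 3 stayed with rank correlation, 5 over 19 libraries and 3 with TMM scaling, and of those most like Utf1 2, 4 (from 1 CPM) and 3. Count tests were not run.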
